A study of Mus musculus with 173 samples.

Results

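Brown adipose tissue was compared with gonadal white adipose tissue, the fat pad that lies along the reproductive tract, within the same wild-type mice. The comparison used 14 of the 173 libraries of the series: brown and gonadal libraries of 7 wild-type animals (4 males and 3 females), matched by the animal code that each library name carries. An 8th wild-type brown library, from female 7, had no gonadal partner analysed here and is given beside the pairs where it matters. All animals were C57BL/6 mice aged 6 months, untreated, carrying no knock-in allele and housed with heterozygous Q20 mice. The series as a whole surveyed 11 tissues of 16 mice by sequencing of polyadenylated RNA, to compare mice heterozygous for the Q175 allele of the Huntington's disease gene with wild-type controls. The 16 Q175 libraries of the same tissues, from 8 animals of the same strain and age housed with Q175 mice, served as a second set of pairs.

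Brown adipocytes hold many mitochondria and several small lipid droplets, and burn fatty acids to make heat: the inner-membrane carrier UCP1 lets protons flow back without making ATP. Noradrenaline from sympathetic nerves switches this on through beta-adrenergic receptors, cyclic AMP and the release of fatty acids from the droplets. White adipocytes store triglyceride in a large droplet and release hormones such as leptin, and gonadal fat is covered by mesothelium, the epithelium that lines the abdominal cavity.

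The proximal promoters of Ucp1 and Lep, the genes that define the 2 tissues in textbooks, are shown from base 250 before the annotated start to the start, 5′ to 3′ on the gene's strand, from RefSeq on build GRCm38.p6. The Ucp1 promoter (chr8:83290098-83290347, plus strand) holds the letters TGACG, the core of a cyclic AMP response element, in capitals beginning at position -147. The Lep promoter (chr6:29059971-29060220, plus strand) holds TTGCGCAA, the palindrome bound by C/EBP factors, in capitals beginning at position -55.
Ucp1: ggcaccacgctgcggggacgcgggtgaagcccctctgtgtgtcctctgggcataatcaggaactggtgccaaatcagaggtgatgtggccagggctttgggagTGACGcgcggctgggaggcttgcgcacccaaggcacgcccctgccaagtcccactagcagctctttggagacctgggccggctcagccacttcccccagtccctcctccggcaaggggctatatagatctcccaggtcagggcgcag
Lep: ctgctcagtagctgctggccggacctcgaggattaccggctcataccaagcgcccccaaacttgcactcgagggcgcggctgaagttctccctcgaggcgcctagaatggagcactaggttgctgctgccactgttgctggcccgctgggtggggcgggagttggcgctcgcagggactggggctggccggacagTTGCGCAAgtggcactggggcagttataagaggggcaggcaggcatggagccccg
Searched on both strands of windows from 250 bases before to 50 after the start, TGACG lay in 33.7% of the promoters of all genes tested. It lay in 33.5% of those of genes more than 2-fold higher in brown and in 19.3% of those more than 2-fold lower. The palindrome TTGCGCAA lay in 0.308% of the promoters of all genes tested, in 0% of those more than 2-fold higher in brown and in 0.393% of those more than 2-fold lower. Promoters were matched by gene symbol for 11375 of the 15331 genes tested. A match describes the letters in the window and does not show that a factor binds there.

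The 15 wild-type adipose libraries held 33993475 to 45148475 estimated counts each, and the tissues formed separate groups: the first principal component, 69.03% of the variance, placed all brown libraries on the side opposite to all gonadal ones. Correlations of log2 CPM (counts scaled to 1000000 per library) ran from 0.949 to 0.984 among brown libraries, from 0.947 to 0.985 among gonadal libraries and from 0.815 to 0.900 between tissues. Sex-linked transcripts matched the labelled sex in 15 of 15 libraries. The number after the letter L in the library names separates the tissues but for 1 number that both share, so what it marks and the tissue difference cannot be told apart. Mitochondrial transcripts took a larger share of the brown libraries, and the TMM factors that scale the libraries were 0.694 to 0.856 in brown and 1.15 to 1.34 in gonadal adipose tissue. CPM values of single genes are on this TMM scale, and log2 fold changes (brown over gonadal, ± standard error) come from it. Without it, on the plain library total, the median log2 fold change of all genes moved from -0.05 to -0.74, a shift that applies to every gene alike.

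The tissues differed in most of the genes tested. Of 15331 genes, 9192 (60.0%) passed edgeR's quasi-likelihood test with animal as a block at a Benjamini-Hochberg adjusted p under 0.05, 4287 (28%) higher in brown and 4905 (32%) lower. On the plain library total the split was 1606 higher and 10611 lower. Of the differences, 1163 genes (7.59%) were higher and 1082 (7.06%) lower by more than 2-fold when the test was set against that size. For 5120 genes (33.4%) no brown library overlapped any gonadal library. Genes called higher or lower below passed the first of these tests. Counts of list members are to be read beside its shares, 28% higher and 32% lower. In bulk tissue, more cells of a type and more RNA per cell cannot be told apart.

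Ucp1 marked the brown libraries. It stood at 1873 CPM in the lowest brown library, 2989.8 in the median and 5189.8 in the highest, against 0, 0.0605 and 1.38 CPM in gonadal adipose tissue. The groups lay far apart, and the log2 fold change was 13.21 ± 1.09 (edgeR's quasi-likelihood test, adjusted p = 2.26e-05). Cidea, a lipid droplet protein of brown adipocytes, had 1468, 1701 and 2395 CPM (lowest, median and highest) in brown, against 1.51, 2.63 and 18.5 CPM in gonadal tissue. It was higher by 8.79 ± 0.63 in 7 of 7 animals. Lep, which encodes leptin, had 10.2, 40.1 and 90.5 CPM in brown, against 367, 458 and 698 CPM in gonadal adipose tissue, and the ranges did not overlap (-3.68 ± 0.33, edgeR adjusted p = 1.71e-05). Adig, a small adipocyte protein listed with the white fat markers, did not separate the tissues. It had 141, 194 and 252 CPM in brown, against 127, 168 and 215 CPM in gonadal tissue, with 0.14 ± 0.14 (edgeR adjusted p = 0.402) on the TMM scale and -0.54 on the plain library total. Per length, Adig stood at 249 ± 38.4 FPKM in brown and 368 ± 61.6 FPKM in gonadal tissue (SD, n = 7 each), and at 109 to 327 FPKM in the 8 wild-type libraries of intestinal white adipose tissue. Ucp1 stood at 971 to 2191 FPKM over all 8 brown libraries, and at 0.0147 to 0.138 FPKM in intestinal white adipose tissue.

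**Figure D1:**
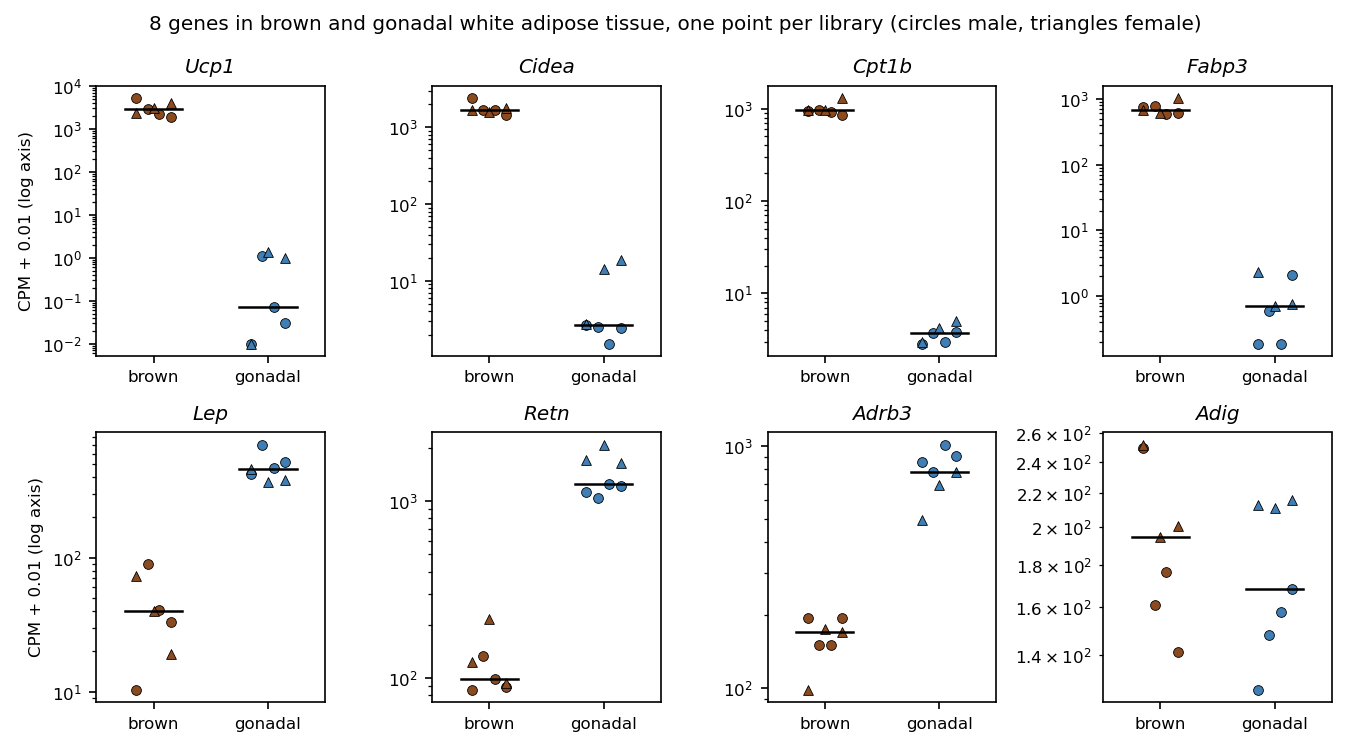
CPM (TMM scale, plus 0.01, log axes) of 8 genes in each library of the 7 wild-type animals, brown adipose tissue left and gonadal adipose tissue right, with circles for males, triangles for females and a bar at the median. Ucp1, Cidea, Cpt1b and Fabp3 lie higher in every brown library, Lep, Retn and Adrb3 lower, and Adig overlaps.

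All 20 tested brown adipocyte markers were higher in brown, 19 of them by more than 2-fold, with a median log2 fold change of 6.55 beside -0.05 for all genes. Their summed level was 5280 to 8225 CPM of the library total in brown and 118 to 213 in gonadal tissue. The proton channel gene Otop1 had 97.1, 119.6 and 172 CPM in brown, against 0.119, 0.189 and 1.2 CPM in gonadal adipose tissue (8.52 ± 0.38). Slc27a2, a very long chain acyl-CoA synthetase and fatty acid transporter, was higher by 9.76 ± 0.92, and Cpn2, a subunit of the plasma enzyme carboxypeptidase N, by 8.98 ± 0.26. Pank1, which catalyses the first step of coenzyme A synthesis, had 350.4 to 437 CPM in brown, against 3.37 to 10.5 CPM in gonadal tissue (6.18 ± 0.26). Acot11, an acyl-CoA thioesterase first described in brown fat, was higher by 6.80 ± 0.26, and Clstn3, whose locus also gives an adipocyte protein of lipid droplets, by 3.46 ± 0.20. Kcnk3, a potassium channel of brown adipocytes, was higher by 4.20 ± 0.35 and the early brown fat factor gene Ebf2 by 1.28 ± 0.20.

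Skeletal muscle transcripts moved with the brown libraries. Of 32 tested muscle fibre genes, 32 were higher in brown (median 8.59), and their summed level ran from 2091 to 29030 CPM of the library total in the 7 paired brown libraries, against 125 to 947 in gonadal tissue. Males 1 and 5 had 29030 and 26226, and female 9 had 2091. The unpaired brown library of female 7 had 147, within the gonadal range, and its Ucp1 was 1852 FPKM. Among the 12 largest rises that the naming rule took, Ucp1, Fabp3, Slc27a2, Cpn2 and Cidea kept high levels in that library, at 1852, 722, 124, 9.54 and 1109 FPKM. Xirp2, Myoz1, Ckmt2, Mylk4, Ampd1 and Myom2, which encode proteins of the muscle fibre or its energy metabolism but are not among those 32 genes, did not. Their brown levels averaged 3.19% to 9.24% of those of wild-type gastrocnemius, and in female 7 they stood at 0.0360 to 0.204 FPKM. Xirp2, for example, had 23.5, 112 and 429.6 CPM in brown, against 0, 0.0198 and 15.8 CPM in gonadal tissue, and 9.97 ± 1.82. In the 4 animals with a muscle sum under 10000, a limit set after seeing the data, its value was 7.08 and no longer passed (edgeR adjusted p = 0.0863). Fewer genes of all kinds passed with these 4 pairs, 7936 against 9192. The part of the smaller number of animals in the lost call was not tested.

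**Figure D2:**
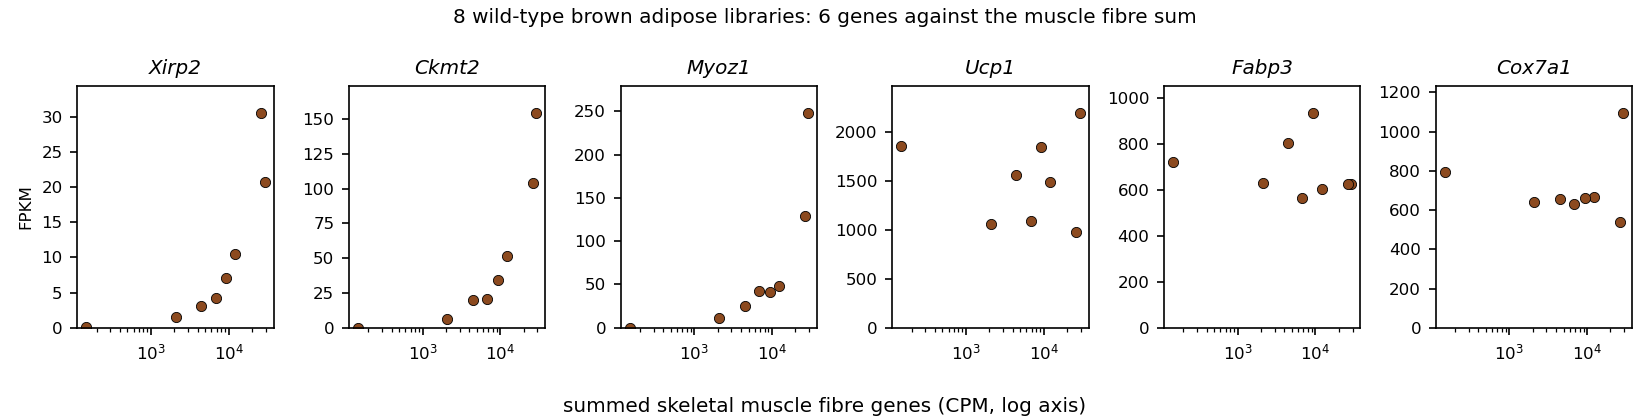
FPKM (linear axes from 0) of 6 genes in the 8 wild-type brown adipose libraries against the summed CPM of 32 muscle fibre genes (log axis), one point per library. Xirp2, Ckmt2 and Myoz1 follow the muscle sum and are near 0 in female 7 at 147 CPM, whereas Ucp1, Fabp3 and Cox7a1 stay high there.

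Genes of the thermogenic control chain were mostly higher in brown. Of 28 tested regulators, 22 were higher and 2 lower (median 1.59), beside 28% and 32% of all genes tested. At the receptor, the beta-adrenergic genes went in different directions. Adrb3, the receptor of rodent adipocytes, had 98.1, 170.0 and 195 CPM in brown, against 496, 781 and 1012 CPM in gonadal adipose tissue. No library overlapped, and it was lower in brown (-2.28 ± 0.11, edgeR adjusted p = 5.41e-07). Adrb1 had 8.14, 15.9 and 28.1 CPM in brown, against 0.768, 1.81 and 2.76 CPM in gonadal tissue, and was higher by 3.22 ± 0.30. Per length, Adrb3 remained the more abundant of these receptors in brown, at 51.2 ± 12.1 FPKM, beside 5.19 ± 2.14 FPKM for Adrb1 (SD, n = 7). Gnas, which encodes the stimulatory G protein that couples them to cyclic AMP and overlaps other transcripts, was higher by 2.13 ± 0.12. Atf2, a transcription factor activated downstream of cyclic AMP, was higher by 1.28 ± 0.09.

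The coactivators and nuclear receptors of mitochondrial genes were higher. Ppargc1a, the PGC-1alpha gene, had 49.3, 110.3 and 265 CPM in brown, against 4.13, 7.86 and 11.5 CPM in gonadal tissue (4.14 ± 0.35), and Ppargc1b was higher by 3.82 ± 0.26. Ppara, the fatty acid sensor, was higher by 5.57 ± 0.38. The oestrogen-related receptor genes were higher by 5.90 ± 0.48 (Esrrg), 5.36 ± 0.28 (Esrrb) and 1.70 ± 0.12 (Esrra). Esrrb was the scarcest of them per length, at 0.770 ± 0.314 FPKM in brown, whereas Esrra stood at 38.4 ± 8.75 FPKM. Dio2, which makes active thyroid hormone within the brown adipocyte, had 36.6, 294 and 519 CPM in brown, against 0.301, 0.893 and 11.3 CPM in gonadal tissue (7.52 ± 0.59). Prdm16, a regulator of brown fat identity, was higher by 2.42 ± 0.15, and Sirt3, a mitochondrial deacetylase, by 2.71 ± 0.09. Nrf1, a transcription factor of respiratory genes, was slightly lower in brown (-0.24 ± 0.08), a call lost in 6 of the 16 alternatives. Tfam, which maintains mitochondrial DNA, was higher (0.88 ± 0.14), a call lost on the plain library total (0.19).

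Transcripts of the mitochondrial genome made up 34.3%, 37.7% and 40.9% (lowest, median and highest) of the counts in brown and 8.44%, 14.1% and 15.998% in gonadal adipose tissue. The share was higher in brown in 7 of 7 animals, by 23.9 percentage points on average (two-sided exact permutation test with sign flips, p = 0.0156, the smallest that 7 pairs can give). All 13 mitochondrially encoded genes were higher (median 2.16). Reads of nuclear copies of mitochondrial sequence may be counted with them. The highest 10 genes by FPKM in brown were all of this kind, led by mt-Co1 at 74837 ± 8426 FPKM (SD, n = 7), against 25156 ± 4956 FPKM in gonadal tissue. The gonadal top 10 also held Fabp4 at 19288 FPKM, Cfd at 11928 FPKM and Car3 at 11740 FPKM.

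The nuclear subunits of the respiratory chain followed. All 36 tested complex I subunits were higher (median 1.79), as were 29 of 30 subunits of complexes II to IV and cytochrome c (median 2.10). Ndufv1, the flavoprotein at the entry of complex I, had 699.9, 804 and 1129 CPM in brown, against 109.6, 124 and 178 CPM in gonadal adipose tissue (2.64 ± 0.14). Uqcrc1, a core subunit of complex III, was higher by 2.85 ± 0.12, Sdhb of complex II by 2.70 ± 0.14 and cytochrome c1, encoded by Cyc1, by 2.70 ± 0.13. Tissue isoforms of cytochrome c oxidase differed much more. Cox7a1 had 230.2, 301 and 574.7 CPM in brown, against 0.863, 1.31 and 2.25 CPM in gonadal tissue (7.88 ± 0.29), and Cox8b was higher by 6.88 ± 0.47. Both are also isoforms of muscle, at 332 and 662 FPKM in gastrocnemius, and in female 7, whose muscle sum was lowest, they stood at 796 and 1914 FPKM.

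ATP synthase did not move as a unit. Of 16 tested subunits and factors, 12 were higher and 2 lower (median 1.58). The catalytic subunits Atp5b and Atp5a1 had 4721 to 6783 and 2835 to 3871 CPM in brown, against 797 to 1484 and 560.2 to 1026 CPM in gonadal tissue (2.33 ± 0.13 and 2.17 ± 0.12). The genes of the membrane c subunit differed from these. Atp5g3 had 157, 187 and 306 CPM in brown, against 217, 333 and 418 CPM in gonadal tissue, and was lower (-0.74 ± 0.19). Atp5g1 had 10.5, 24.3 and 103 CPM in brown, against 21.9, 31.6 and 35.4 CPM in gonadal tissue, and was not called (-0.15 ± 0.43, edgeR adjusted p = 0.769). In the 4 animals with a muscle sum under 10000 it was lower (-0.90, edgeR adjusted p = 0.0181). Its highest brown value, 103 CPM, came from male 1, it stood at 457 FPKM in gastrocnemius, and in female 7 it was 7.64 FPKM. Both genes have processed copies elsewhere in the genome, so reads may be split and their values are uncertain. Atpif1, which encodes the ATPase inhibitor, was lower in brown (-0.93 ± 0.13) in 7 of 7 animals.

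The NRF1 core GCGCATGC, the binding sequence of a transcription factor of respiratory genes, was searched on both strands in the same promoter windows. It lay in 15.2% (10 of 66) of the promoters of respiratory chain and ATP synthase genes, in 20% (5 of 25) of fatty acid oxidation genes and in 7.14% (2 of 28) of TCA cycle genes, against 5.49% (625 of 11375) of all genes tested. Among genes more than 2-fold higher in brown the share was 5.25% (45 of 857), and among those more than 2-fold lower 2.36% (18 of 763). Stretches of 20 bases on either side of the core (capitals, on the gene's strand) are shown for genes of complex II, cytochrome c and fatty acid oxidation that were higher in brown, and for Ppara. Ppara, a nuclear receptor gene, is counted among the fatty acid oxidation genes here.
Sdhb: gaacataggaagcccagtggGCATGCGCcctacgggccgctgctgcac
Cycs: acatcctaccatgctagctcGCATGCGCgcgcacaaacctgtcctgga
Etfdh: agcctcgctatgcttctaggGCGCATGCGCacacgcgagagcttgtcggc
Acadm: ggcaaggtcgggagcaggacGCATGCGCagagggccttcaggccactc
Ppara: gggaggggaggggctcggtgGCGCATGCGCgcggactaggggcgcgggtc
They lie on build GRCm38.p6 at chr4:140961197-140961244 (Sdhb, plus strand), chr6:50566602-50566649 (Cycs, minus), chr3:79628866-79628915 (Etfdh, minus), chr3:153944774-153944821 (Acadm, minus) and chr15:85735725-85735774 (Ppara, plus). In Etfdh and Ppara the core and its reverse complement overlap, which gives 10 capitals.

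Of the genes that feed the chain, 29 of 32 TCA cycle and pyruvate oxidation genes were higher and none lower (median 2.30). Suclg1, a subunit of succinyl-CoA ligase, had 718, 895 and 1277 CPM in brown, against 49.0, 67.3 and 89.0 CPM in gonadal adipose tissue (3.77 ± 0.14), and Idh3a, of the NAD-dependent isocitrate dehydrogenase, was higher by 3.42 ± 0.12. Pdk4, the kinase that shuts off pyruvate dehydrogenase when fatty acids are burnt, had 1912, 2527 and 3322 CPM in brown, against 24.1, 36.2 and 68.3 CPM in gonadal tissue. Its log2 fold change of 6.14 ± 0.16 was the highest of this list.

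Of 29 mitochondrial fatty acid oxidation genes, 27 were higher and 2 lower (median 2.55), and isoforms of the entry step went in opposite directions. Cpt1b, the carnitine palmitoyltransferase of muscle and brown fat, had 858, 976 and 1296 CPM in brown, against 2.85, 3.74 and 4.97 CPM in gonadal tissue (8.10 ± 0.14, edgeR adjusted p = 3.02e-09). Cpt1a, the isoform of liver and most other tissues, had 15.3, 21.2 and 24.4 CPM in brown, against 34.6, 44.1 and 80.6 CPM in gonadal tissue (-1.17 ± 0.20). Neither gene overlapped between tissues. Per length, Cpt1b exceeded Cpt1a in brown (282 and 3.89 FPKM), and Cpt1a exceeded Cpt1b in gonadal tissue (14.5 and 1.75 FPKM). Gastrocnemius had 97.5 FPKM of Cpt1b, and female 7 brown had 299 FPKM. Among fatty acid transporters, Slc27a1 was lower in brown (-1.44 ± 0.16) while Slc27a2 was higher. The carnitine carrier Slc25a20 was higher by 3.25 ± 0.11. Acaa2, the last enzyme of the spiral, had 1599.7 to 2431 CPM in brown, against 83.9 to 105 CPM in gonadal tissue (4.46 ± 0.14), and Hadhb, Acadvl, Acadl and Etfdh were higher by 3.81 ± 0.13, 3.67 ± 0.13, 3.59 ± 0.15 and 3.28 ± 0.12.

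Peroxisomal oxidation differed less: 12 of 19 genes were higher and 2 lower (median 0.44), against 4 higher and 8 lower with a median of -0.25 on the plain library total. Transporters of the peroxisome membrane split. Abcd3 had 269, 384 and 492 CPM in brown, against 77.2, 90.6 and 129.7 CPM in gonadal tissue (1.89 ± 0.10). Abcd2 had 108, 137 and 176 CPM in brown, against 403, 502 and 577 CPM in gonadal tissue (-1.87 ± 0.13). Crat, carnitine acetyltransferase, was higher by 1.69 ± 0.10 and Ehhadh, the bifunctional enzyme, by 1.49 ± 0.19.

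Fabp3, the fatty acid binding protein of heart and muscle, had 578, 687 and 1018 CPM in brown, against 0.181, 0.711 and 2.36 CPM in gonadal adipose tissue (9.89 ± 0.62). Fabp4, the adipocyte form, had 6622, 7793 and 12682 CPM in brown, against 7452, 10097 and 11727 CPM in gonadal tissue. Its groups overlapped and it was not called (-0.28 ± 0.18, edgeR adjusted p = 0.204). It was called lower in brown without male 1 (-0.43) and on the plain library total (-0.96). In gastrocnemius Fabp3 stood at 345 FPKM, and in female 7 brown at 722 FPKM.

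Of 30 genes of lipolysis and the lipid droplet, 15 were higher and 9 lower (median 0.36), beside 28% and 32% of all genes tested. On the plain library total 10 were higher and 15 lower, with a median of -0.33. The droplet proteins split by type. Plin5, which ties droplets to mitochondria, had 129.9, 155 and 219.9 CPM in brown, against 4.64, 6.19 and 7.96 CPM in gonadal tissue (4.69 ± 0.14). Cidec and Plin4 were lower in brown (-1.29 ± 0.14 and -1.40 ± 0.21). Pnpla2, the first lipase of lipolysis, was higher (0.98 ± 0.17), but not on the plain library total (0.29, not called). Lipe, hormone-sensitive lipase, was lower (-0.42 ± 0.13), a call lost without male 5 (-0.40) or without female 9 (-0.41). Gk, glycerol kinase, which lets a cell reuse the glycerol that lipolysis frees, had 74.3, 187 and 326 CPM in brown, against 6.72, 8.56 and 18.6 CPM in gonadal tissue (4.46 ± 0.37).

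Of 27 genes of fatty acid and triglyceride synthesis, 9 were higher and 8 lower (median 0.24), beside 28% and 32% of all genes tested. On the plain library total 2 were higher and 13 lower, with a median of -0.46. Elovl3, an elongase induced by cold in brown fat, had 8.004, 22.8 and 71.3 CPM in brown, against 0.0401, 0.0992 and 2.804 CPM in gonadal tissue (5.70 ± 0.76). Acacb, the acetyl-CoA carboxylase at the mitochondrion, was higher by 2.37 ± 0.20. Fads1, a desaturase, Mogat1, an acyltransferase, and Pnpla3, a droplet enzyme, were lower (-2.10 ± 0.15, -2.19 ± 0.28 and -1.44 ± 0.11). Elovl6 overlapped, with 285 to 1001 CPM in brown and 15.1 to 941 CPM in gonadal tissue (2.26 ± 0.71), and lost its call in 6 of the 16 alternatives tried. Scd1, stearoyl-CoA desaturase, had 11888 to 24878 CPM in brown and 17708 to 46796 CPM in gonadal tissue and was not called (-0.35 ± 0.20, edgeR adjusted p = 0.145), but on the plain library total it was called lower (-1.04).

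Glucose uptake and glycolysis genes were higher in 22 of 30 cases and lower in 2 (median 1.37). The median brown level of this list was 82.9% of that of gastrocnemius, and the part of muscle RNA in the count was not tested. Pkm, pyruvate kinase, had 1259, 1429 and 1996 CPM in brown, against 199, 254 and 568 CPM in gonadal adipose tissue (2.30 ± 0.21). Its level in gastrocnemius was 1249 FPKM and in female 7 brown 371 FPKM, beside 476 ± 51.9 FPKM in the paired brown libraries. Ldhb, the lactate dehydrogenase subunit of oxidative tissues, was higher by 3.46 ± 0.15 and the lactate transporter Slc16a1 by 3.07 ± 0.20. Slc2a4, the insulin-responsive glucose transporter, was higher by 1.09 ± 0.12. It stood at 100.1 FPKM in female 7 brown, within the gonadal range, and at 191 FPKM in gastrocnemius, and the part of muscle RNA in its difference was not tested. The neuronal-type glucose transporter Slc2a3 and the brain-type glycogen phosphorylase Pygb were lower (-1.72 ± 0.23 and -1.12 ± 0.19). The shuttle that passes cytosolic electrons to the chain was higher at both ends: Gpd1 by 2.98 ± 0.22 and its mitochondrial partner Gpd2 by 3.31 ± 0.25.

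Branched chain amino acid breakdown was higher in 19 of 22 genes and lower in none (median 1.08), against 13 higher and 5 lower on the plain library total. Bckdha, of the dehydrogenase complex, and Pccb, of propionyl-CoA carboxylase, were higher by 1.34 ± 0.11 and 1.64 ± 0.10. Coenzyme Q and haem synthesis had 18 of 21 genes higher and 2 lower (median 1.08), against 11 higher and 6 lower on the plain library total. Coq8a, a kinase-like protein of coenzyme Q synthesis, stood out in it with 1533, 1848 and 2345 CPM in brown, against 31.1, 44.8 and 67.5 CPM in gonadal tissue (5.39 ± 0.17). Of 17 genes of mitochondrial dynamics and cristae, 13 were higher and 2 lower (median 1.198). Letmd1, a mitochondrial protein needed for brown fat heat production in mice, was higher by 3.45 ± 0.13, Immt, the mitofilin of cristae junctions, by 1.89 ± 0.11, and the fusion genes Opa1 and Mfn1 by 1.76 ± 0.09 and 1.49 ± 0.08.

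Carriers and cycles other than UCP1 were mixed. In the mitochondrial carrier family, a list that includes Ucp1 itself, 16 of 27 genes were higher and 5 lower (median 0.91). Among all genes tested, 28% were higher and 32% lower. Slc25a42, the coenzyme A carrier, was higher by 3.72 ± 0.16 and Ucp3 by 2.65 ± 0.14. Of 20 genes of creatine, calcium and other cycles, 13 were higher and 5 lower (median 1.49), beside the same 28% and 32%. The list shares genes with muscle, and its median brown level was 74.6% of that of gastrocnemius. The creatine transporter Slc6a8 was higher by 1.47 ± 0.10. It stood at 7.04 FPKM in female 7 brown, within the gonadal range, and at 36.6 FPKM in gastrocnemius, and here too that part was not tested. Gamt, which makes creatine, had 2.34, 4.63 and 7.02 CPM in brown, against 10.7, 18.3 and 23.3 CPM in gonadal tissue (-1.91 ± 0.11). Ckb, the brain-type creatine kinase, was not called (-0.20 ± 0.11, edgeR adjusted p = 0.124), and was called lower on the plain library total (-0.89). Pm20d1, which makes N-acyl amino acids, was higher by 2.62 ± 0.17.

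**Figure D3:**
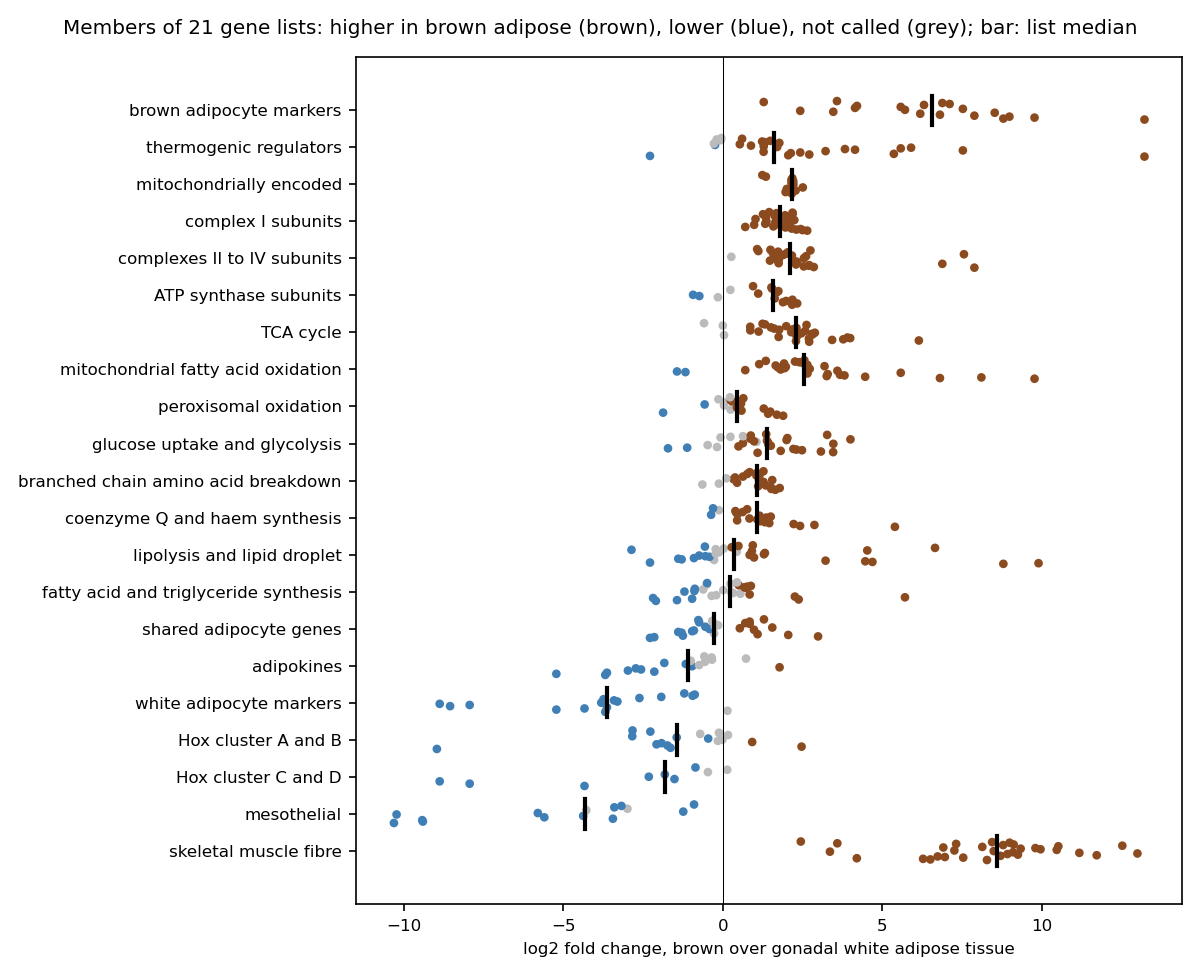
Log2 fold changes (brown over gonadal adipose tissue, TMM scale) of the tested members of 21 gene lists, one point per gene, brown where called higher, blue where called lower and grey where not called, with a bar at each list's median. The medians of the respiratory chain, ATP synthase, TCA cycle and fatty acid oxidation lists lie between 1.58 and 2.55, those of the white adipocyte, Hox and mesothelial lists below 0, and genes near 0 counts in a tissue are drawn at their fitted value.

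Genes that both kinds of adipocyte use were split: of 26, 10 were higher and 11 lower in brown (median -0.26), beside 28% and 32% of all genes tested. On the plain library total 5 were higher and 16 lower. Cfd, the adipokine adipsin, had 1350, 1899 and 2815 CPM in brown, against 7861, 8401 and 9767 CPM in gonadal adipose tissue (-2.15 ± 0.13). Adipoq, adiponectin, had 1107, 1246 and 1403 CPM in brown, against 1972, 2439.6 and 3086 CPM in gonadal tissue (-0.96 ± 0.11). Lpl, lipoprotein lipase, was lower (-0.91 ± 0.14), and Car3, a carbonic anhydrase (-1.25 ± 0.10). Pparg, the master regulator of adipocytes, overlapped between tissues and was higher by 0.53 ± 0.16 on the TMM scale, whereas on the plain library total it was -0.16 and not called. Cebpb, an early adipogenic factor, had 37.1, 63.5 and 92.0 CPM in brown, against 11.7, 13.3 and 18.3 CPM in gonadal tissue (2.05 ± 0.17). Pck1, the enzyme of glyceroneogenesis, was higher by 1.55 ± 0.21.

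Of 17 white adipocyte markers, 16 were lower in brown (median -3.63), and Adig was the exception. Retn, resistin, had 85.0, 97.8 and 215 CPM in brown, against 1042, 1251 and 2095 CPM in gonadal adipose tissue (-3.63 ± 0.16). Slc7a10, an amino acid transporter of white adipocytes, had 7.27, 17.1 and 35.7 CPM in brown, against 134, 170.4 and 192 CPM in gonadal tissue (-3.30 ± 0.25). Nnat, neuronatin, was lower (-3.81 ± 0.47). Tcf21, a visceral mesenchyme factor, had 2 counts over the 7 brown libraries, against 1547 over the gonadal ones, a ratio of summed counts on the TMM scale of 504-fold lower in brown (95% counting interval 139 to 4162).

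Of 18 adipokine genes, 10 were lower in brown and Nampt alone was higher (median -1.08), beside 32% and 28% of all genes tested. Agt, angiotensinogen, had 2.91, 4.49 and 8.49 CPM in brown, against 72.9, 230.0 and 311 CPM in gonadal tissue (-5.22 ± 0.36). Rbp4, the retinol carrier, was lower (-2.97 ± 0.15). Nampt, which makes a precursor of NAD, had 279, 455 and 513 CPM in brown, against 103, 113 and 127.7 CPM in gonadal tissue (1.78 ± 0.14). Of 16 genes for factors that brown fat is reported to secrete, 5 were higher and 5 lower, beside 28% and 32% of all genes tested. Their median was 0.32, and -0.37 on the plain library total. Nrg4 overlapped between tissues but was higher in 7 of 7 animals (1.09 ± 0.16), and Vegfa was higher by 0.96 ± 0.09. Igf1, Bmp4, Slit2 and Igfbp2 were lower (-2.56 ± 0.15, -2.73 ± 0.21, -2.39 ± 0.26 and -4.90 ± 0.80).

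Apart from the lists, the 12 largest falls that the naming rule took began with Upk3b, a mesothelial protein, which had 0, 0 and 0.140 CPM in brown, against 9.76, 38.8 and 97.5 CPM in gonadal adipose tissue (-10.30 ± 0.45). C6, a terminal complement component, had 0.140, 1.57 and 1.97 CPM in brown, against 31.5, 85.5 and 123 CPM in gonadal tissue (-5.86 ± 0.51). Fam110c was lower (-5.34 ± 0.28). Receptors and signals were among the rest: Oxtr, the oxytocin receptor, was lower (-4.53 ± 0.31), as was Penk, which encodes the enkephalin precursor (-4.11 ± 0.27). Gsta3, a glutathione transferase, had 3.25 to 14.2 CPM in brown, against 100.3 to 180.1 CPM in gonadal tissue (-4.29 ± 0.22). The imprinted transcription factor gene Plagl1 was lower (-4.28 ± 0.19), and the transporter genes Slc6a13 and Slc16a12 (-4.40 ± 0.36 and -4.07 ± 0.29). Upk3b, C6, Fam110c, Agt, Gsta3, Plagl1, Penk, Slc16a12, Slc6a13, Hoxc8 and Oxtr were lower in all 7 animals, which the naming rule required.

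The Hox genes, which mark position, differed as well. They keep a record of where along the body axis a tissue arose, with low-numbered genes active towards the head and high-numbered ones towards the tail. Of 17 tested genes of clusters A and B, 10 were lower and 2 higher in brown (median -1.45). Of 9 of clusters C and D, 7 were lower and none higher (median -1.82). Among all genes tested, 32% were lower and 28% higher. The 2 Hox genes that were higher are low-numbered neighbours. Hoxa4 had 8.24, 8.76 and 13.3 CPM in brown, against 0.967, 2.09 and 2.45 CPM in gonadal adipose tissue (2.47 ± 0.22). Hoxa5 had 12.6, 14.4 and 29.3 CPM in brown, against 6.86, 8.66 and 12.4 CPM in gonadal tissue (0.92 ± 0.20), and this call was lost on the plain library total (0.23, edgeR adjusted p = 0.249). Hoxa7 was lower (-1.64 ± 0.11), Hoxb8 (-2.08 ± 0.19) and Hoxd3 (-2.32 ± 0.17). Hoxc8 had 1.84, 3.28 and 6.71 CPM in brown, against 34.7, 94.998 and 122 CPM in gonadal tissue (-4.33 ± 0.24). Hoxc9 had 0, 0 and 0.0560 CPM in brown, against 3.37, 5.29 and 6.16 CPM in gonadal tissue. The paralogues numbered 10 were close to absent from brown. Hoxc10 had 3 counts over the brown libraries, against 2902 over the gonadal ones (629.8-fold lower in brown as a ratio of summed counts on the TMM scale, 95% counting interval 215 to 3056). Hoxa10 had 2, against 2160 (703.1-fold lower, 194 to 5809). Both varied widely among gonadal libraries, from 0.241 to 20.3 CPM for Hoxc10 and from 0.201 to 17.3 CPM for Hoxa10. Hox transcripts within a cluster overlap, and without strand their reads cannot be told apart from those of antisense neighbours.

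**Figure D4:**
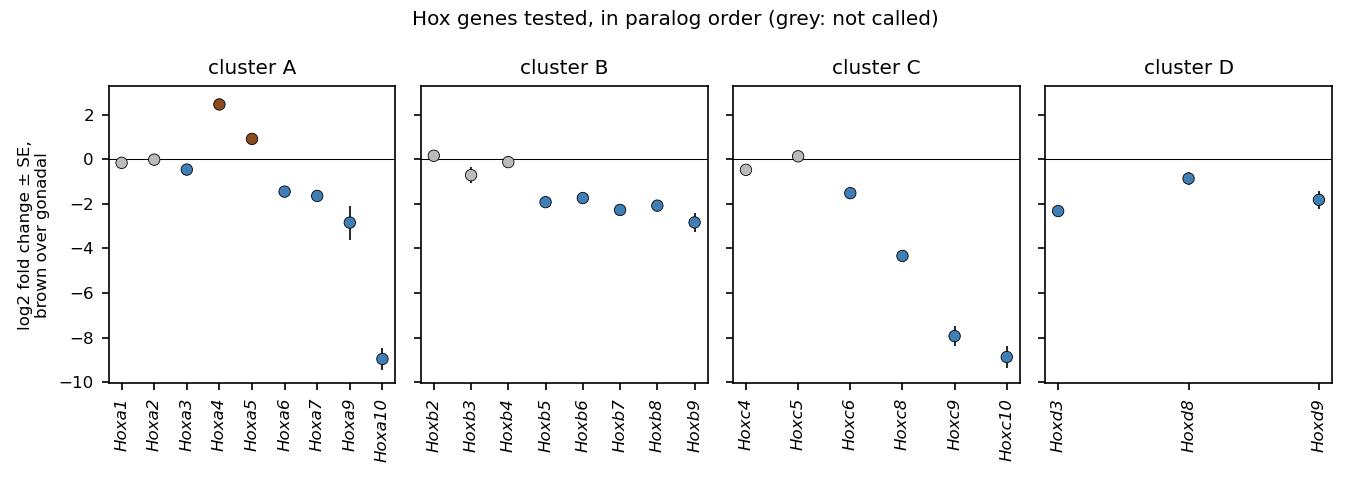
Log2 fold change (brown over gonadal adipose tissue) of tested Hox genes in order of paralogue number, with a panel for each cluster, bars for the standard error and colours for higher in brown (brown), lower (blue) and not called (grey). Hoxa4 and Hoxa5 are the 2 called higher, and Hoxa10, Hoxc9 and Hoxc10 are the lowest, drawn at fitted values that rest on 3 counts or fewer in brown for Hoxa10 and Hoxc10.

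Of 26 other developmental transcription factors, 11 were higher and 8 lower (median 0.02, and -0.67 on the plain library total), beside 28% and 32% of all genes tested and a median of -0.05. Lhx8, a LIM homeobox gene used as a marker of classical brown fat, had 0.815, 3.85 and 6.77 CPM in brown, against 0, 0 and 0.141 CPM in gonadal tissue (7.10 ± 0.68). Zic1, another such marker, had 3.46, 7.61 and 10.2 CPM in brown, against 0, 0.0201 and 0.768 CPM in gonadal tissue (6.30 ± 0.71). The T-box genes Tbx15 and Tbx5 were higher by 6.73 ± 0.61 and 4.71 ± 0.61, and Irx5 by 3.57 ± 0.40. Tbx15 stood at 67.4 FPKM in gastrocnemius, 5.92 ± 4.31 FPKM in the paired brown libraries and 0.638 FPKM in female 7. Zic1 in female 7 was 1.53 FPKM and Lhx8 1.25 FPKM, beside 0.194 and 0.0161 FPKM in gastrocnemius. Lower in brown were the mesodermal factor genes Osr1 (-3.13 ± 0.25), Gata6 (-3.30 ± 0.21) and Foxc2 (-4.10 ± 0.33). Foxc2 had 0.0627, 0.140 and 0.419 CPM in brown, against 1.90, 2.69 and 5.59 CPM in gonadal tissue.

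Markers of other cell types differed with the tissues. Of 14 mesothelial genes, 12 were lower in brown and none higher (median -4.33), and their sum was 18.9 to 33.3 CPM of the library total in brown, against 130 to 463 in gonadal adipose tissue. Wt1, which marks mesothelium and visceral fat precursors, had 0, 0 and 0.0550 CPM in brown, against 6.13, 13.6 and 22.1 CPM in gonadal tissue (-9.40 ± 0.36). Upk1b had 3 counts over the brown libraries, against 4021 over the gonadal ones (873-fold lower in brown as a ratio of summed counts on the TMM scale, 95% counting interval 298 to 4233). Bnc1 had 0, against 1310, which is at least 284-fold lower on the same scale with a floor of 3 counts over the group. Setting Bnc1 at that bound leaves the list's median as it is.

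Immune markers were mostly lower in brown, where 32% of all genes tested were lower. Of 16 macrophage genes, 9 were lower and none higher (median -0.54), with a sum of 197 to 515 CPM in brown, against 459 to 1514 in gonadal tissue. Cd163 and Trem2 were lower (-1.09 ± 0.23 and -1.50 ± 0.30), and C1qa (-0.84 ± 0.18), each with overlapping groups. Of 11 T cell genes, 8 were lower (median -0.98), and of 9 B cell genes, 7 (median -1.22). Ighm, the IgM heavy chain, had 17.1, 52.1 and 152 CPM in brown, against 156, 263 and 398 CPM in gonadal tissue (-2.44 ± 0.31). Of 6 tested erythroid genes, 3 were lower, and the single tested thymocyte gene was lower.

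Nerve and support cells showed another pattern. Of 8 Schwann cell and nerve genes, 6 were higher and 1 lower in brown (median 1.21), beside 28% and 32% of all genes tested. The summed level of the list, however, was 137 to 181 CPM of the library total in brown, against 212 to 407 in gonadal tissue, without overlap. S100b, a calcium-binding protein of glia that adipocytes also make, had 34.8, 47.5 and 87.8 CPM in brown, against 0.562, 1.27 and 2.59 CPM in gonadal adipose tissue (5.20 ± 0.37). Cdh19, a Schwann cell cadherin, was higher by 1.82 ± 0.26, with overlapping groups. Of 13 smooth muscle and mural genes, 4 were higher and 6 lower (median -0.49), beside 28% and 32% of all genes tested. The highest of them, Des (2.44), is also among the 32 skeletal muscle fibre genes. The contractile genes Tagln, Acta2 and Myh11 were lower (-2.59 ± 0.28, -2.03 ± 0.18 and -1.96 ± 0.24). Of 16 endothelial genes, 3 were higher and 4 lower (median -0.16), beside the same 28% and 32%, and on the plain library total 0 and 13. Of 7 lymphatic genes, Pdpn alone was lower (-1.44 ± 0.19).

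Most progenitor and matrix genes were not called. Of 18 progenitor and fibroblast genes, 2 were higher and 5 lower (median -0.33), where 32% of all genes tested were lower, and of 26 collagen and matrix genes, 1 was higher and 11 lower (median -0.46). Col15a1, a basement membrane collagen of fat progenitors, had 54.1, 91.3 and 124 CPM in brown, against 259, 405 and 565 CPM in gonadal tissue (-2.23 ± 0.26), and Dcn, decorin, was lower (-1.42 ± 0.21). Of 13 genes of hormone receptors and steroid handling, 3 were higher and 8 lower (median -0.83), beside 28% and 32% of all genes tested. The list is not of steroid genes alone, and its lowest member is Prlr. Prlr, the prolactin receptor, had 0.815, 2.22 and 9.58 CPM in brown, against 19.5, 30.6 and 46.5 CPM in gonadal tissue (-3.23 ± 0.44). Ghr, the growth hormone receptor, was lower (-1.89 ± 0.12), while Hsd11b1, which regenerates active glucocorticoid, was higher by 1.55 ± 0.32.

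Clock and interferon genes differed little as groups. Of 19 clock and clock output genes, 9 were higher and 5 lower, beside 28% and 32% of all genes tested (median 0.27, and -0.42 on the plain library total). Nfil3 and Hlf, transcription factors of the clock's output, were higher by 2.45 ± 0.29 and 1.58 ± 0.15. The time of day of collection is not given in the sources used here. Of 18 interferon response genes, 3 were higher and 3 lower, beside the same 28% and 32% (median 0.09, and -0.60 on the plain library total). Ifi27, an interferon-induced mitochondrial protein, had 749, 862 and 1339 CPM in brown, against 235, 258 and 414 CPM in gonadal tissue (1.66 ± 0.15). Transcripts of neighbouring organs were few. Of the epididymal list 1 gene was tested and not called, no testis germ cell gene passed the filter, and the summed germ cell level was at most 0.446 CPM in brown, against 0.312 to 0.988 in 6 gonadal libraries and 42.8 in that of male 5. Of 5 ovary genes, 1 was higher and 3 lower, neither of 2 oviduct and uterus genes was called, and 1 of 2 epidermal genes was lower.

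Whether the tissue difference itself depended on sex was tested with an interaction term, in which a positive value means that the brown over gonadal ratio was higher in males. It passed in 50 of 15331 genes (0.326%), with 1359 at an unadjusted p under 0.05. The count rested on single animals: it was 164 without male 1, 3 without female 3 or without female 5, and 5 to 14 without female 9, male 3, male 5 or male 7. Cxcl14, Kng2 and Prodh passed in all 11 alternatives.

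Cxcl14, a chemokine secreted by brown fat, had 28.7, 29.7, 30.8 and 37.1 CPM in male brown adipose tissue, against 2.38, 2.39, 2.59 and 2.94 CPM in male gonadal tissue. In females it had 9.15, 12.7 and 12.7 CPM in brown, against 6.13, 6.26 and 7.78 CPM in gonadal tissue. The tissue ratio was thus higher in males than in females by 2.84 ± 0.18 on the log2 scale (edgeR adjusted p = 0.00162). Kng2, a kininogen gene with a close paralogue, differed in gonadal tissue. In males it had 66.6, 102, 110.3 and 119 CPM in brown, against 0.222, 0.278, 0.423 and 0.461 CPM in gonadal tissue. In females it had 68.5, 76.2 and 155 CPM in brown, against 4.03, 5.84 and 7.34 CPM in gonadal tissue. The term was 4.09 ± 0.31 (edgeR adjusted p = 0.00233).

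Prodh, the proline dehydrogenase of mitochondria, changed direction with sex. In males it had 20.2, 22.2, 25.03 and 28.4 CPM in brown, against 46.2, 60.0, 61.4 and 65.6 CPM in gonadal adipose tissue. In females it had 39.6, 47.2 and 63.1 CPM in brown, against 17.6, 26.6 and 30.6 CPM in gonadal tissue. The groups did not overlap in either sex, and the term was -2.30 ± 0.17 (edgeR adjusted p = 0.00233). Syt12, a synaptotagmin, averaged 11.5 ± 2.60 CPM in male brown and 40.9 ± 4.65 CPM in male gonadal tissue (SD, n = 4), and 15.8 ± 2.56 and 13.9 ± 2.22 CPM in the same tissues of females (n = 3), with a term of -2.03 ± 0.17. Trim67, a TRIM family protein, averaged 62.2 ± 24 CPM in male brown and 9.17 ± 2.47 in male gonadal tissue, and 66.2 ± 14.8 and 1.61 ± 0.479 CPM in those of females (-2.65 ± 0.30). With an animal left out, Syt12 passed in 5 of 7 fits and Trim67 in 3.

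The smooth muscle genes Actg2 and Cnn1 were highest in female gonadal libraries, but their terms depended on single animals: with an animal left out, Actg2 passed in 0 of 7 fits and Cnn1 in 1. Actg2 averaged 0.797 ± 0.261 CPM in male brown and 3.94 ± 1.15 in male gonadal tissue, and 0.865 ± 0.552 and 44.5 ± 20.5 CPM in those of females (3.39 ± 0.48). Cnn1 averaged 1.99 ± 0.172 CPM in male brown and 5.43 ± 1.46 in male gonadal tissue, and 2.46 ± 0.864 and 40.1 ± 13.4 CPM in those of females (2.59 ± 0.34). H2-Q10, a class I gene with close paralogues and hence uncertain, had a term of 2.54 ± 0.33. The other genes taken by the rule were Egln3, a prolyl hydroxylase (1.91 ± 0.24), Ppp1r3b, a glycogen-targeting subunit (1.76 ± 0.25), Parm1 (2.27 ± 0.32), Bmper, a BMP-binding protein (-2.50 ± 0.27), Gnao1, a G protein subunit (-1.67 ± 0.19), Iqgap2 (-1.97 ± 0.23), Tspan5 (-1.74 ± 0.21) and Ctcflos (-1.36 ± 0.17). H2-Q10 and these 8 passed in 1 or 2 of the 7 fits with an animal left out.

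**Figure D5:**
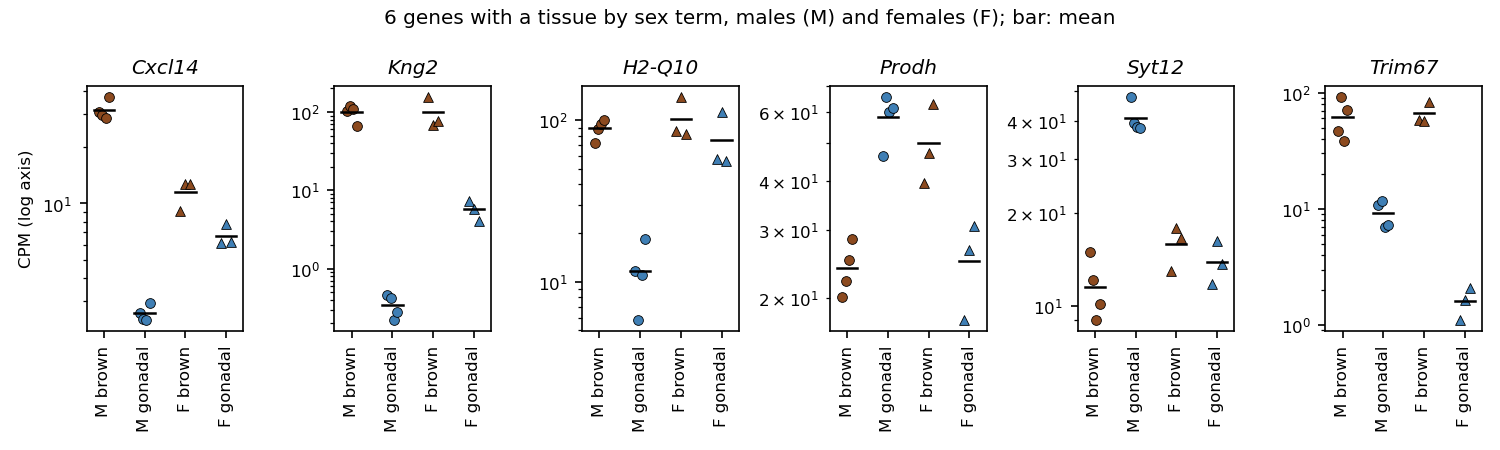
CPM (log axes) of 6 genes that passed the tissue by sex term, one point per library, with males and females drawn apart, brown left of gonadal adipose tissue within each sex and a bar at each mean. Prodh is lower in brown in males and higher in brown in females, and Kng2 in gonadal tissue is at most 0.461 CPM in males and at least 4.03 CPM in females.

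The same comparison in the 8 Q175 animals, which share no library with the wild-type fit, called 11384 of 15475 genes (73.6%), 5121 higher and 6263 lower in brown. Of the 9192 wild-type calls, 9078 were tested there and 7872 (86.7%) were called in the same direction, while 115 were called in the opposite one. These 7872 are 69.1% of the Q175 calls. Of the 2245 genes past the 2-fold test in wild-type mice, 2176 were tested, 2055 were called in the same direction and 23 in the opposite one. The size of the 2 sets of calls was not compared by a test.

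The leading genes were called in Q175 mice too. Ucp1 was higher by 13.05, Cidea by 9.20 and Cpt1b by 8.38 on the log2 scale, Lep was lower (-3.79) and Adrb3 (-1.22). Adig, not called in wild-type mice, was higher in Q175 brown (1.07, edgeR adjusted p = 2.5e-06), and Fabp4 was higher by 0.62. All Q175 fold changes are on the TMM scale, and no fit on the library total was run for these animals. On the library total, the 26 genes that both kinds of adipocyte use, Fabp4 among them, summed to 34670 to 47362 CPM in Q175 brown. In Q175 gonadal tissue they summed to 56107 to 86579 CPM. Atp5g1 was lower (-1.81), and Atp5g3 was not called (-0.11, edgeR adjusted p = 0.22). All 20 brown markers were higher, 16 of 17 white markers were lower, and all 36 complex I genes were higher. Other lists stood further from their wild-type counts: 7 of 7 lymphatic genes were lower in Q175 brown (median -3.59, beside -0.53 in wild-type mice), 17 of 18 progenitor and fibroblast genes (-1.78 beside -0.33) and 24 of 26 collagen and matrix genes (-1.64 beside -0.46). Of 16 macrophage genes 15 were lower (-1.83 beside -0.54), and the median of the secreted factors was -0.88 beside 0.32. More genes of all kinds were called in Q175 mice, 73.6% beside 60.0% in wild-type mice. Of the 15475 genes tested in Q175 mice, 5121 were higher and 6263 lower. Of the muscle genes, Xirp2 was higher in Q175 brown by 4.68 and Myom2 by 3.13, beside 9.97 and 8.67 in wild-type mice, and 25 of 32 muscle fibre genes were called higher and 1 lower. Whether these values differ between genotypes was not tested.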

How the data were processed

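RNA of brown and gonadal white adipose tissue was compared over 7 wild-type animals with both tissues (4 males, 3 females, 14 libraries). The authors deposited 2 tables by Ensembl gene, per the file headers: unscaled estimated (expected) counts in each library, and FPKM, scaled by the authors to gene length and library total. On average 15.9% of the deposited estimated counts in these libraries were not whole, and they were rounded for the tests. The table holds 38561 genes, of which 36639 were given a symbol. The submitters' processing notes name CASAVA 1.8.2, and the labels' protocols name polyadenylated RNA. Aligner, counter, genome build and strand were not given in the sources used here. Reads of overlapping genes on opposite strands cannot therefore be told apart. The estimated counts summed to 33993475 to 45148475 per library.

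Genes were tested with edgeR 4.0.16 (R 4.3.3): TMM scaling, filterByExpr by tissue, quasi-likelihood F-tests (robust) with animal as a block, and Benjamini-Hochberg adjustment over all genes tested (threshold 0.05). A second test on the same fit was set against a log2 fold change of 1. The tissue by sex term was tested in the same way, and the 8 Q175 pairs with the first model. CPM values of single genes are on the TMM scale, summed CPM of lists on the library total. Counting intervals (95%, exact) and floors (3 counts) cover counting error only, and reads without molecular identifiers are not independent molecules. Pairing comes from the animal code in the library names, which differs from the replicate number in the titles. Deviations of the 2 libraries of an animal from their tissue means correlated at -0.226 (male 1) to 0.233 (female 5), and 2 of 7 libraries matched their own animal best. The labels say that animals are separate mice.

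The members, the 45 gene lists and the tests were chosen with earlier results of these data known. Named are Ucp1, Cidea, Lep and Adig; up to 12 genes in each direction with the largest change among those past the 2-fold test, with a mean of at least 10 CPM, a single direction in 7 animals, an established name and no place in the lists of muscle fibre (32 genes) or other organs; up to 6 members of each list with the smallest p; the 10 genes with the highest FPKM in each tissue; and up to 8 genes in each direction for the tissue by sex term. Of these, some are given in the counts only, and some are not reported here. Further genes, such as Adrb1, Cpt1a, Atp5g1, Hoxa5, Pparg, Fabp4 and Scd1, were chosen after their values were seen.

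Alternatives were RLE size factors, no filter on low counts, DESeq2 1.42.0, no replicate block over all 15 libraries, limma 3.58.1 on log2 of the deposited FPKM plus 1 or 0.1, muscle fibre genes removed, and each animal left out in turn. Scaling to the library total and the 4 animals under 10000 CPM of muscle transcripts were added after seeing the data. On simulated data for the tissue test (14942 genes), 75 of 98 genes changed 2-fold and 94 of 96 changed 4-fold were called, with 11 false calls. For the tissue by sex term (14947 genes), 4 of 98 and 56 of 96 were called, with 5 false calls. In both simulations the genes left unchanged had no tissue difference. False calls due to scaling where most genes differ were therefore not tested. Promoters are RefSeq's on GRCm38.p6, matched by symbol.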

Additional observations from a re-analysis of the deposited data

Results flagged for a closer look

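In 39 of 372 groups of 7 libraries examined (genes and list sums named above), 1 library lay farther from the rest than Dixon's 95% limit allows. For normally distributed values, chance alone would give about 1 group in 20. That rate does not hold here, because the limit was applied to CPM without a log scale. Some groups, such as Hoxa10 and Upk3b in brown, rest on few counts, and the groups share libraries and are not independent. Whether 39 groups is more than chance gives therefore cannot be told, and the values are given as a description. The values below are CPM, each followed by the range of the other 6 libraries of that tissue.

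Brown tissue of male 1 held 13 of them. It was the highest for Cidea at 2395 (others 1468 to 1803), Myoz1 at 463 (19.4 to 196), Cox7a1 at 574.7 (230.2 to 318), Cox8b at 1209 (604 to 861) and Fabp4 at 12682 (6622 to 8104). The same held for Sdhb at 1106 (643 to 833), Pkm at 1996 (1259 to 1531), Hoxa4 at 13.3 (8.24 to 9.16), Atp5g1 at 102.7 (10.5 to 49.8), Atp5g3 at 306 (157 to 221) and Tfam at 63.1 (33.8 to 45.6). Its summed erythroid level was 1176 (225 to 598), and it was the lowest for Ppara at 77.3 (191 to 252). Its muscle sum, 29030, was the highest of the brown libraries, and the part of it in these values was not tested.

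Other brown libraries stood apart less often. Female 3 was highest for Cpt1b at 1296 (858 to 979), Kcnk3 at 459.6 (267 to 339) and Upk3b at 0.140 (0 to 0.0550). Female 5 was highest for Retn at 215 (85.0 to 133) and Hoxa10 at 0.0560 (0 to 0), female 9 for Oxtr at 22.1 (0.532 to 6.64) and Ebf2 at 107 (75.6 to 86.6). Male 3 was highest for Slc6a13 at 5.89 (0.815 to 2.21), Ighm at 152 (17.1 to 70.0) and summed B cell genes at 136 (15.3 to 56.3).

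Gonadal tissue of female 9 carried muscle transcripts. It was highest for Xirp2 at 15.8 (0 to 0.161), Myoz1 at 3.42 (0 to 0.0807), Ckmt2 at 1.11 (0 to 0.181), Ampd1 at 2.03 (0 to 0.0201) and Myom2 at 3.87 (0 to 0.282). Its summed muscle level was 947 (125 to 302), and its Oxtr 396.5 (22.9 to 71.5). Oxtr was thus the highest in this animal in both tissues.

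Among other gonadal libraries, male 5 was highest for summed testis germ cell genes at 42.8 (0.312 to 0.988), Slc27a2 at 4.40 (0 to 0.524) and Gk at 18.6 (6.72 to 9.70). Male 1 was highest for Cpt1a at 80.6 (34.6 to 53.8) and summed lymphatic genes at 206 (31.2 to 99.5). Female 3 was highest for Tagln at 467 (64.2 to 211) and Dio2 at 11.3 (0.301 to 3.57), female 5 for Zic1 at 0.768 (0 to 0.242) and male 3 for Lhx8 at 0.141 (0 to 0.0397).

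The brown over gonadal difference itself differed between males and females by the interaction test for the genes described above. Among them, only Cxcl14, Kng2 and Prodh passed in all 7 fits with an animal left out. The log2 terms (male minus female) were 3.39 for Actg2, 2.59 for Cnn1, 2.84 for Cxcl14, 4.09 for Kng2, 1.91 for Egln3, 2.54 for H2-Q10, 1.76 for Ppp1r3b and 2.27 for Parm1. They were -2.30 for Prodh, -2.03 for Syt12, -2.50 for Bmper, -2.65 for Trim67, -1.67 for Gnao1, -1.97 for Iqgap2, -1.74 for Tspan5 and -1.36 for Ctcflos.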

How the results depend on the processing

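The count of genes that differed stayed between 7936 (4 animals under 10000 CPM of muscle transcripts) and 12217 (library total) over 16 alternatives, and the fit with no replicate block over all 15 libraries called 9901, and 2378 past the 2-fold test. Scaling mattered most: the split of higher and lower calls was 4287 and 4905 with TMM, 1606 and 10611 on the library total, 1655 and 10477 with limma on log2(FPKM + 1), and 1662 and 10536 on log2(FPKM + 0.1), where the median of all genes was -0.05, -0.74, -0.47 and -0.69. Of the 9192 calls, 768 took the opposite direction on the library total. The count past the 2-fold test was 4143 (635 higher, 3508 lower) on the library total, 1778 in the 4 animals and 2032 to 2206 with an animal left out. Adig turned from 0.14 to -0.54 on the library total and to -0.56 on log2(FPKM + 1) and log2(FPKM + 0.1) alike, and Pparg from 0.53 to -0.16 under the same 3. The cause was not tested beyond the shift of all genes that these scalings share. Relative to that shift, the medians of the peroxisomal, synthesis, lipolysis, clock, interferon, secreted factor and developmental lists on the library total were 0.49, 0.28, 0.41, 0.32, 0.14, 0.37 and 0.07. The tissue by sex count was 374 with DESeq2, 8 on the library total, and 3 to 164 with an animal left out; the cause was not tested. The Q175 count was 11643 with no replicate block, and the block changed no call of a named gene. The planned limit of 2000 CPM of muscle transcripts kept 0 animals and was not run. Genes near 0 counts in brown and 7 pairs of libraries limit the precision.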

Other observations

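Imprinted genes, a list written after the values were seen, included 21 that were tested, of which 4 were higher, 10 lower and 7 not called, with a median log2 fold change of -0.45. Of all genes tested 28% were higher and 32% lower, with a median of -0.05. On the plain library total 3 of the 21 were higher and 14 lower (median -1.13, beside -0.74 for all genes). Several of those that were lower mark white fat or its expansion. Mest had 1.15, 2.02 and 15.4 CPM (lowest, median and highest) in brown, against 9.79, 50.1 and 152 CPM in gonadal adipose tissue. Nnat had 13.9, 46.3 and 134 CPM in brown, against 194, 749.7 and 1480 CPM in gonadal tissue. Slc22a18 had 0.496, 0.839 and 1.51 CPM in brown, against 5.36, 6.05 and 7.70 CPM in gonadal tissue, and Peg10 1.53, 2.35 and 3.77 CPM, against 6.40, 7.59 and 13.8 CPM.

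H19, a long noncoding RNA, went the other way, with 13.6, 85.1 and 127.7 CPM in brown, against 0.173, 0.401 and 2.97 CPM in gonadal tissue. It stood at 193 FPKM in gastrocnemius, at 24.04 ± 17.5 FPKM in the paired brown libraries (SD, n = 7) and at 0.410 FPKM in the brown library of female 7, beside 0.439 ± 0.554 FPKM in gonadal tissue. The part of muscle RNA in its difference was not tested. Igf2, its neighbour in the imprinted cluster, overlapped, with 6.92, 9.87 and 12.3 CPM in brown and 7.20, 8.25 and 15.1 CPM in gonadal tissue. Ndn had 29.4, 36.7 and 47.1 CPM in brown, against 17.4, 18.3 and 24.5 CPM in gonadal tissue. In the Q175 pairs 5 of these genes were called higher in brown and 13 lower. Of all 15475 genes tested there, 5121 were higher and 6263 lower.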
